A study of Mus musculus with 6 samples.

Results

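The 10 genes described here encode the lipases of the fat cell and the proteins that switch them on or off: *Pnpla2*, *Lipe*, *Mgll*, *Abhd5*, *G0s2*, *Hilpda*, *Ces1d*, *Ces1f*, *Pnpla3* and *Abhd6*. They were chosen by name for their function, with earlier results of these data known, and are 10 of the 36144 gene symbols in the deposited table. The data are bulk RNA-seq of whole inguinal white adipose tissue (iWAT), the main subcutaneous fat depot of the mouse, from 10-week-old females on a C57BL6/J background that ate freely. The libraries fall into 3 from Cebpa_fl/fl mice, in which both copies of *Cebpa* carry loxP sites but no Cre is present, and 3 from Cebpa_ASKO mice, which carry the same floxed alleles plus AdipoQ-Cre. AdipoQ-Cre is driven by the adiponectin promoter and acts in adiponectin-expressing cells, late in fat cell differentiation, so other cells of the depot keep *Cebpa*. Lymph nodes were removed, each library is labelled as a mouse of its own, and all 6 carry the same batch label. The libraries held between 33141769 and 49477671 estimated counts, so the lowest member, *Hilpda*, still had between 310.0 and 474 counts per library. *Cebpa* itself was at 448, 465 and 498 CPM (counts scaled to a common library size with TMM factors) in Cebpa_fl/fl and at 37.7, 45.8 and 37.2 CPM in the libraries labelled Cebpa_ASKO.

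Fat cells store triglyceride in a lipid droplet and release it as fatty acids and glycerol in a chain of hydrolysis steps. ATGL, the product of *Pnpla2*, removes the first fatty acid, hormone-sensitive lipase, the product of *Lipe*, acts on the diglyceride, and monoglyceride lipase, the product of *Mgll*, frees the last fatty acid. ATGL needs the coactivator CGI-58, encoded by *Abhd5*, which perilipin 1 holds on the droplet surface until catecholamines trigger its release, and the small proteins encoded by *G0s2* and *Hilpda* inhibit ATGL. *Abhd6* encodes another monoglyceride hydrolase, *Ces1d* and *Ces1f* encode carboxylesterases of the endoplasmic reticulum and droplet that can hydrolyse triglyceride, and *Pnpla3* encodes adiponutrin, an ATGL relative that binds CGI-58 and is induced by feeding.

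Most of these genes fell in Cebpa_ASKO iWAT, and none of the 10 passed the test as higher. *Ces1f* fell the most, to 22.7% of its Cebpa_fl/fl mean, followed by *Pnpla3* (27.4%), *Mgll* (40.7%), *Abhd5* (44.9%), *Ces1d* (49.99%) and *Abhd6* (64.1%). The genes of the main triglyceride and diglyceride lipases, *Pnpla2* at 57.9% and *Lipe* at 69.1% of their Cebpa_fl/fl means, did not pass the test. Of the ATGL inhibitor genes, *G0s2* stood at 83.8% with overlapping groups and *Hilpda* at 158%, and neither passed the test.

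All 16069 genes that passed a filter on low counts were tested together (edgeR's quasi-likelihood test, p-values adjusted by Benjamini-Hochberg), and those under an adjusted p of 0.05 are referred to as called. All 10 members were tested; 6 were called lower, where 3.84% of all genes tested were, and 0 were called higher, where 1.39% were. In either direction, 5.23% of all genes were called. At an unadjusted p below 0.05 there were 8 members lower and 1 higher, *Hilpda*. Among the 16069 genes tested, 1668 were lower and 1517 higher at that cutoff. DESeq2 called 8 members lower, where it called 6.45% of all genes, and 0 higher, where it called 3.79%. In either direction it called 10.2%. In 8 members every Cebpa_ASKO library lay below every Cebpa_fl/fl library, which held for 13.2% of all genes, and in *Hilpda* every one lay above, which held for 12.9%. The median log2 fold change was -0.89 over the 10 members and 0.02 over all genes tested. The edgeR and DESeq2 p-values weigh the difference between the genotypes against the spread between the 3 mice of each. Both fits estimate that spread partly from other genes. With the summed skeletal muscle level as a covariate no gene was called, *Cebpa* included (log2 fold change -3.97, adjusted p 0.0733). In that fit 5 of the members had an unadjusted p below 0.05, as did 991 of the 16069 genes tested. The muscle sum was higher in every Cebpa_ASKO library than in any Cebpa_fl/fl library. The fit therefore cannot tell muscle from genotype, and its loss of calls does not show what part muscle had.

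**Figure D1:**
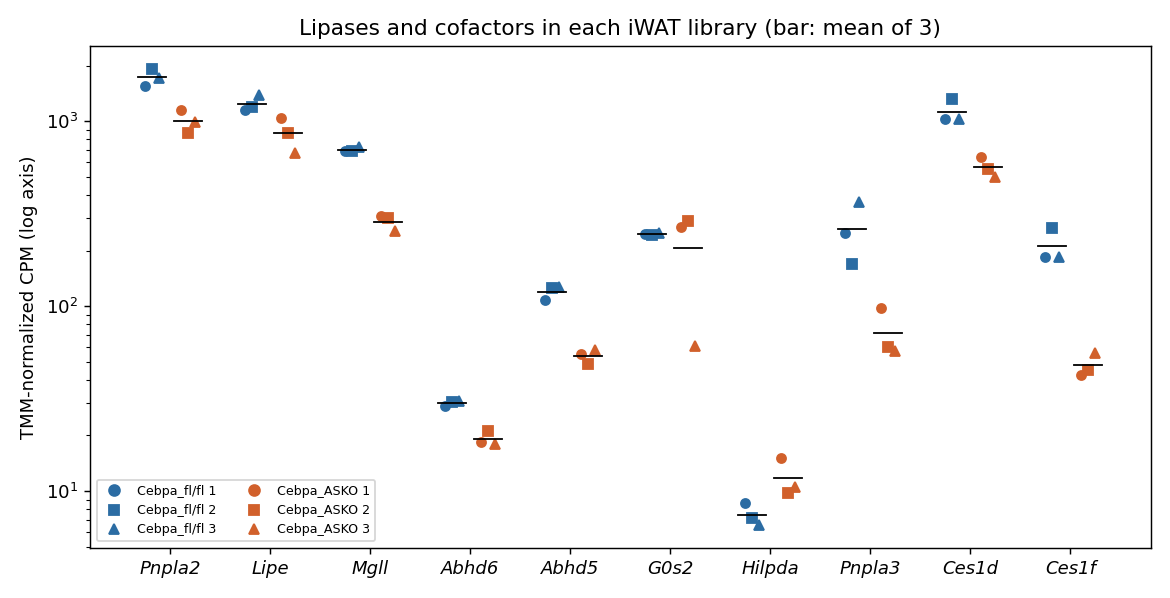
TMM-normalized CPM (log axis) of the 10 members in each of the 6 iWAT libraries, 3 Cebpa_fl/fl in blue and 3 Cebpa_ASKO in orange, with a bar at each mean. The groups are apart for every gene except *G0s2*, where Cebpa_ASKO 3 lies at 60.7 CPM and the other 5 libraries between 244 and 290 CPM.

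Levels between genes are compared as TPM, a length-normalized share of each library, summed over all transcripts of a gene, coding or not. In Cebpa_fl/fl iWAT *Pnpla2* was highest, at 972 to 1349 TPM, above *Ces1d* (647 to 916), *Lipe* (616 to 796) and *Pnpla3* (491 to 929), whose ranges ran into each other from one to the next. *G0s2* (398 to 441), *Mgll* (222 to 250.4), *Ces1f* (125 to 202), *Abhd5* (68.8 to 88.6), *Abhd6* (16.8 to 20.5) and *Hilpda* (10.3 to 11.96) followed without overlap between neighbours. In Cebpa_ASKO iWAT *Pnpla2* was again highest, at 628 to 751 TPM, and *Lipe* was next by its mean, at 432 to 539 TPM. *Ces1d* (370.5 to 402), *G0s2* (115 to 539) and *Pnpla3* (154 to 244) followed, each overlapping its neighbour and *G0s2* overlapping *Lipe* too, ahead of *Mgll* (96.7 to 110.0). *Ces1f* (30.0 to 46.0) and *Abhd5* (33.1 to 40.6) overlapped, and *Hilpda* (15.8 to 21.0) stood above *Abhd6* (10.9 to 14.3), the reverse of their order in Cebpa_fl/fl.

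*Pnpla2* (GRCm38 chr7:141455198-141460743, plus strand) was at 1549, 1925 and 1714 CPM in Cebpa_fl/fl and at 1149.9, 865 and 989 CPM in Cebpa_ASKO. All 3 Cebpa_ASKO values lay below all 3 Cebpa_fl/fl values, and the gap between the closest libraries was larger than the SD of either genotype (188 and 143 CPM). The log2 fold change of *Pnpla2* was -0.79 (SE 0.172), with an adjusted p of 0.0522, just above the threshold. The call depended on the fit, since DESeq2 gave *Pnpla2* an adjusted p of 1.04e-05, edgeR with DESeq2's size factors gave 0.0458, and leaving out any library gave 0.0637 to 0.195.

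*Lipe* (chr7:25379527-25398710, minus strand) was at 1149, 1192 and 1390.1 CPM in Cebpa_fl/fl and at 1039, 868 and 674 CPM in Cebpa_ASKO. The Cebpa_ASKO libraries were again all lower, but Cebpa_ASKO 1 lay close to Cebpa_fl/fl 1. The log2 fold change of *Lipe* was -0.53 (SE 0.194, adjusted p 0.191), and DESeq2 was the only alternative fit across genes that called it (adjusted p 0.0412).

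*Mgll* (chr6:88724412-88828360, plus strand) was at 694, 694 and 725 CPM in Cebpa_fl/fl and at 306, 299 and 254 CPM in Cebpa_ASKO. Each genotype formed a tight cluster and the clusters were far apart. The log2 fold change of *Mgll* was -1.30 (SE 0.120, adjusted p 0.00243), and it was called whichever library was left out. *Abhd6* (chr14:8002902-8056763, plus strand), which acts on the same class of substrate, was at 28.8, 30.3 and 30.6 CPM in Cebpa_fl/fl and at 18.5, 21.1 and 17.9 CPM in Cebpa_ASKO. Its groups did not overlap, and its fall was smaller (log2 fold change -0.64, SE 0.0928, adjusted p 0.0125). Without Cebpa_ASKO 1 the call of *Abhd6* was lost (log2 fold change -0.62, adjusted p 0.0758). Of the 31-base words in the main *Abhd6* transcript 11.1% also occur in the pseudogene *Gm1833*, which was at 0 CPM in all 6 libraries.

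*Abhd5* (chr9:122351608-122381524, plus strand), the coactivator gene, was at 109, 125 and 126 CPM in Cebpa_fl/fl and at 54.8, 48.7 and 58.1 CPM in Cebpa_ASKO. The genotypes were well separated. The log2 fold change of *Abhd5* was -1.15 (SE 0.105, adjusted p 0.00234), and it was called whichever library was left out.

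*G0s2* (chr1:193272161-193273217, minus strand), the most abundant inhibitor gene, was at 247, 244 and 248 CPM in Cebpa_fl/fl and at 268, 290 and 60.7 CPM in Cebpa_ASKO. The first 2 Cebpa_ASKO libraries lay slightly above the Cebpa_fl/fl libraries and Cebpa_ASKO 3 far below, so the groups overlapped (log2 fold change -0.26, SE 0.513, adjusted p 0.85). Without Cebpa_ASKO 3 the log2 fold change was 0.16, with an adjusted p of 0.487. Chosen after their values were seen, 2 more genes differed between Cebpa_ASKO 3 and the other Cebpa_ASKO libraries. *Lep*, the leptin gene, was at 129, 258 and 144 CPM in Cebpa_fl/fl and at 161, 177 and 57.2 CPM in Cebpa_ASKO, so Cebpa_ASKO 3 was the lowest of all 6. *Egr1*, an immediate early gene, was at 77.1, 33.0 and 83.9 CPM in Cebpa_fl/fl and at 24.2, 17.9 and 104 CPM in Cebpa_ASKO. There Cebpa_ASKO 3 was the highest of all 6 and the other 2 Cebpa_ASKO libraries were the lowest. Their part in the *G0s2* value was not tested.

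*Hilpda* (chr6:29272488-29275446, plus strand), the hypoxia-inducible inhibitor gene, was at 8.62, 7.12 and 6.57 CPM in Cebpa_fl/fl and at 15.0, 9.73 and 10.6 CPM in Cebpa_ASKO. It was the only member whose Cebpa_ASKO libraries all lay above the Cebpa_fl/fl libraries. The log2 fold change of *Hilpda* was 0.66 (SE 0.206, unadjusted p 0.0157, adjusted p 0.138), and no alternative called it, with 0.0514 in DESeq2 as the lowest adjusted p. Without Cebpa_ASKO 1, the highest library, the log2 fold change was 0.45.

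Because ATGL activity depends on its coactivator and inhibitors, transcript ratios within a library were compared. *Abhd5* per *Pnpla2*, in TPM, was 0.0707, 0.0657 and 0.0737 in Cebpa_fl/fl and 0.0451, 0.0539 and 0.0541 in Cebpa_ASKO, lower in every Cebpa_ASKO library when all transcripts of a gene were counted (log2 difference -0.46). With the main coding transcripts alone, *Abhd5*-204 per *Pnpla2*-202, an alternative chosen after the data were seen, it was 0.0709, 0.0635 and 0.0798 against 0.0689, 0.0709 and 0.0761, which overlapped (log2 difference 0.02, exact permutation p 0.9). Summed over all coding transcripts the ratios overlapped as well (log2 difference -0.10, exact permutation p 0.4), so the lower ratio was not seen among coding transcripts. The coding ratios rest on how the estimation divided a gene's reads among its transcripts. *Hilpda* per *Pnpla2* was 0.0123, 0.00822 and 0.00892 in Cebpa_fl/fl and 0.0286, 0.0252 and 0.0230 in Cebpa_ASKO, higher in every Cebpa_ASKO library (log2 difference 1.40). *Mgll* per *Lipe* was 0.361, 0.354 and 0.314 in Cebpa_fl/fl and 0.184, 0.208 and 0.224 in Cebpa_ASKO, lower in every Cebpa_ASKO library (log2 difference -0.74). Counted over all transcripts, each of these 3 ratios separated the genotypes at the smallest p that 3 against 3 libraries allow, 0.1 by an exact two-sided permutation test, or 0.167 adjusted over the 5 ratios compared. *G0s2* per *Pnpla2* was 0.409, 0.327 and 0.368 against 0.593, 0.858 and 0.153, which overlapped (log2 difference 0.22, exact permutation p 0.9). *Lipe* per *Pnpla2* was 0.633, 0.523 and 0.687 against 0.735, 0.843 and 0.575 and also overlapped (log2 difference 0.22, exact permutation p 0.4).

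**Figure D2:**
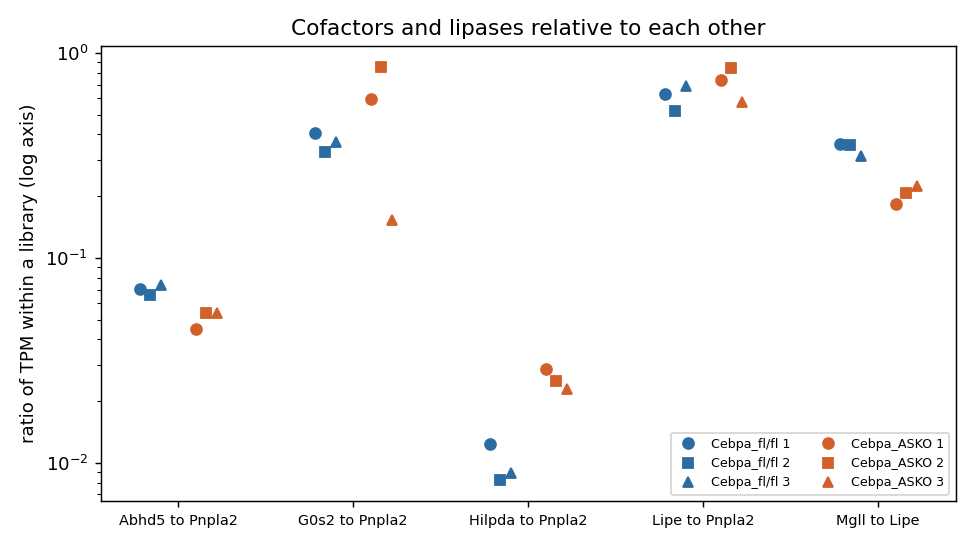
Ratio of 2 members' TPM, all transcripts of each gene included, within each library (log axis), for the 3 Cebpa_fl/fl (blue) and 3 Cebpa_ASKO (orange) libraries. *Abhd5* to *Pnpla2* and *Mgll* to *Lipe* are lower, and *Hilpda* to *Pnpla2* higher, in all 3 Cebpa_ASKO libraries, while the other 2 ratios overlap.

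The carboxylesterase genes *Ces1d* (chr8:93166068-93197838, minus strand) and *Ces1f* (chr8:93256236-93279747, minus strand) lie in the same cluster on chromosome 8. *Ces1d* was at 1036, 1321 and 1025 CPM in Cebpa_fl/fl and at 642, 550.5 and 499 CPM in Cebpa_ASKO, with no overlap. Its log2 fold change was -1.0 (SE 0.168, adjusted p 0.0227). Leaving out a library kept its log2 fold change between -1.10 and -0.88, but the call was lost without Cebpa_fl/fl 1 (adjusted p 0.0574) and without Cebpa_ASKO 1, 2 or 3 (0.0689, 0.108 and 0.0629).

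*Ces1f* was at 184, 264 and 184 CPM in Cebpa_fl/fl and at 42.3, 45.4 and 56.1 CPM in Cebpa_ASKO. Even the highest Cebpa_ASKO library lay far below the lowest Cebpa_fl/fl library (log2 fold change -2.14, SE 0.190, adjusted p 0.00213), and *Ces1f* was called whichever library was left out. Of the 31-base words in the main transcript, 7.5% for *Ces1d* and 5.54% for *Ces1f* also occur in other genes, mostly of the *Ces1* family, so a share of their reads could be divided differently. The sum of the 8 *Ces1* genes is free of such division within the family, and in Cebpa_fl/fl it was 1338 ± 214 CPM, against 612 ± 66.0 CPM in Cebpa_ASKO (SD, n = 3, log2 difference -1.12, exact two-sided permutation p 0.1). *Ces1d* and *Ces1f* made up at least 99.9% of that sum in every library. *Ces1e* was between 0.0634 and 0.179 CPM, and *Ces1g* between 0.0212 and 0.0424 CPM in Cebpa_fl/fl and between 0.158 and 0.230 CPM in Cebpa_ASKO, both under the filter on low counts.

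*Pnpla3* (chr15:84167837-84187236, plus strand) was at 250.05, 169 and 365 CPM in Cebpa_fl/fl and at 98.1, 59.8 and 57.0 CPM in Cebpa_ASKO. Its 3 Cebpa_fl/fl values were widely spread, yet its lowest Cebpa_fl/fl library lay above its highest Cebpa_ASKO library. The log2 fold change of *Pnpla3* was -1.87 (SE 0.335, adjusted p 0.0287). The call held in 1 of the 6 fits that left out a library, without Cebpa_fl/fl 2 (adjusted p 0.0127), and was lost in the others (0.0549 to 0.119), with log2 fold changes of -2.16 to -1.55.

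Feeding induces *Pnpla3* together with the fatty acid synthesis genes, so it was read beside *Fasn*, the fatty acid synthase gene. *Fasn* was at 9648, 2743 and 15806 CPM in Cebpa_fl/fl and at 10670.4, 10114 and 8671 CPM in Cebpa_ASKO (log2 fold change 0.06, adjusted p 0.971). Within each genotype the order of the mice by *Fasn* was that by *Pnpla3*. As a percentage of *Fasn*, *Pnpla3* was 2.59%, 6.16% and 2.31% in Cebpa_fl/fl and 0.919%, 0.592% and 0.657% in Cebpa_ASKO, without overlap. Of the 11 tested fed-state lipogenesis genes edgeR called 0 in either direction, with 1 lower and 1 higher at an unadjusted p below 0.05, and DESeq2 called 1 lower.

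**Figure D3:**
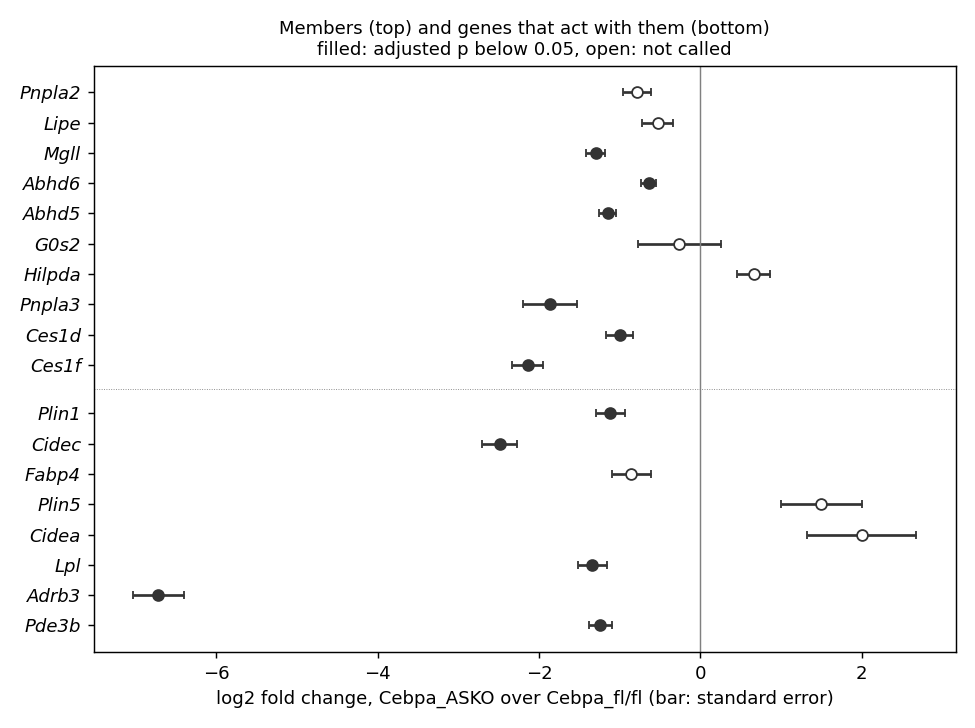
Log2 fold change of Cebpa_ASKO over Cebpa_fl/fl with its standard error (bar) for the 10 members (above the dotted line) and 8 genes that act with them, filled where the adjusted p was below 0.05. Of the members *Ces1f* and *Pnpla3* lie farthest below 0 and only *Hilpda* lies above, unfilled; *Adrb3* lies at -6.72.

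The counts were estimated per transcript, so each gene's value can be split among its transcripts. Reads that fit several transcripts of a gene were divided by the estimation and could be divided differently. The shares and fold changes of single transcripts rest on that division, which was not tested. *Mgll*, *G0s2*, *Hilpda*, *Ces1d* and *Ces1f* each came almost wholly from a single transcript, with at least 91.3% of the gene's counts in every library. *Pnpla2* drew 66.4% to 69.4% of its counts from *Pnpla2*-201 (2048 bases), which the GENCODE M21 annotation marks as a target of nonsense-mediated decay, and 24.1% to 26.8% from the coding *Pnpla2*-202 (1799 bases). Both fell when the transcripts were tested in place of the gene, *Pnpla2*-201 with a log2 fold change of -0.78 (SE 0.164, adjusted p 0.0466) and *Pnpla2*-202 with -0.88 (SE 0.143, adjusted p 0.0196). The coding *Pnpla2*-202 alone was at 277 to 395 TPM in Cebpa_fl/fl and at 172 to 204 TPM in Cebpa_ASKO. In each genotype that lay below the coding *Lipe*-202 (434 to 558 and 277 to 396 TPM) and *Ces1d*-201 (628 to 902 and 356 to 393 TPM). Testing by transcript was chosen after the data were seen.

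The shares of the main *Abhd5* transcripts did not overlap between the genotypes. The coding *Abhd5*-204 (3157 bases) held 48.5%, 48.0% and 53.4% of the gene's counts in Cebpa_fl/fl and 64.1%, 58.4% and 60.8% in Cebpa_ASKO. *Abhd5*-201 (1386 bases), annotated as a target of nonsense-mediated decay, held 42.2%, 41.0% and 39.3% in Cebpa_fl/fl and 29.9%, 27.5% and 29.2% in Cebpa_ASKO. The ratio of *Abhd5*-204 to *Abhd5*-201 was 1.15, 1.17 and 1.36 against 2.15, 2.12 and 2.09 (log2 difference 0.80, exact two-sided permutation p 0.1, the smallest possible). *Abhd5*-204 fell with a log2 fold change of -0.86 (SE 0.131, adjusted p 0.0150) and *Abhd5*-201 with -1.65 (SE 0.114, adjusted p 0.000812).

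For *Pnpla3* the scale mattered. The coding *Pnpla3*-201 (1313 bases) held 78.9% to 82.7% of the counts but 29.9% to 35.4% of the TPM, and the short *Pnpla3*-202 (303 bases, annotated as a processed transcript) held 17.3% to 21.1% of the counts but 64.6% to 70.1% of the TPM. The coding transcript alone was at 147 to 313 TPM in Cebpa_fl/fl, which is below the *G0s2* range and in place of the gene's 491 to 929 TPM, and at 54.4 to 77.4 TPM in Cebpa_ASKO. Both transcripts fell, with log2 fold changes of -1.86 (SE 0.336, adjusted p 0.0290) and -1.89 (SE 0.333, adjusted p 0.0272). *Lipe*-202 carried 78.0% to 85.0% of the *Lipe* counts, with a log2 fold change of -0.56 (adjusted p 0.199), and *Abhd6*-202 carried 59.0% to 86.1% of the *Abhd6* counts, with -0.60 (adjusted p 0.0893).

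**Figure D4:**
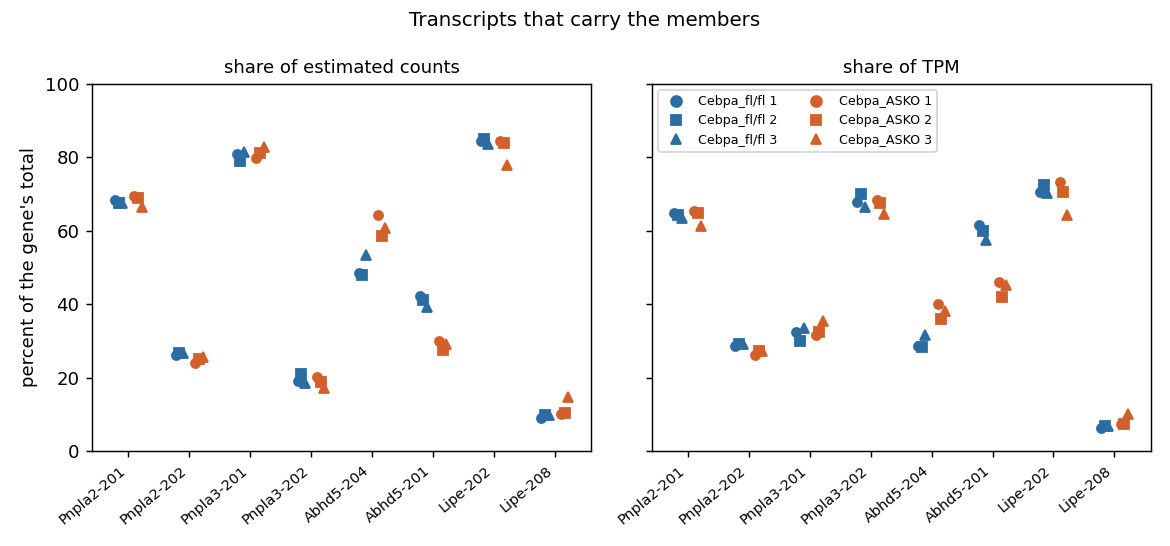
Share of a gene's estimated counts (left) and of its TPM (right) held by named transcripts, in percent, for each Cebpa_fl/fl (blue) and Cebpa_ASKO (orange) library. The *Abhd5*-204 share of counts is higher and the *Abhd5*-201 share lower in all 3 Cebpa_ASKO libraries, and *Pnpla3*-202 has a small share of counts but most of the TPM.

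Promoter sequence is shown for the lipase gene *Pnpla2*, its coactivator gene *Abhd5* and *Mgll*, which were lower side by side, and for the inhibitor gene *Hilpda*, which was not. Each is the 250 bases before the transcription start in RefSeq on GRCm38.p6, plus strand, 5′ to 3′, and 8 of the 10 members were in that table. For *Mgll* and *Hilpda*, which have another listed start, the window shown is the one at the start of the main transcript. The motifs searched on both strands were C/EBP (TTNNGCAA), the PPAR-RXR direct repeat (AGGTCA, any base, AGGTCA), the hypoxia response core (ACGTG) and the GC box (GGGCGG). Capitals mark matches on either strand.
Pnpla2, chr7:141454938-141455187: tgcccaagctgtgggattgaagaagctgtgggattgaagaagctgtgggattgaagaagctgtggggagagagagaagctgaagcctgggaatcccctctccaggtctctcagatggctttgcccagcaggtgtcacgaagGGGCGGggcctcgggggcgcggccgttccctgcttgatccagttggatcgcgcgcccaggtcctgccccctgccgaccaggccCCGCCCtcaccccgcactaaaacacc
Abhd5, chr9:122351366-122351615: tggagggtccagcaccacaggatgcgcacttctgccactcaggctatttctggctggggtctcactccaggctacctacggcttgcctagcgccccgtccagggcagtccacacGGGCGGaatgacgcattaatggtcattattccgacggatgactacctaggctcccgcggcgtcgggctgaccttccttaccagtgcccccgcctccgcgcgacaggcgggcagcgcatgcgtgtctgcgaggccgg
Mgll, chr6:88724162-88724411: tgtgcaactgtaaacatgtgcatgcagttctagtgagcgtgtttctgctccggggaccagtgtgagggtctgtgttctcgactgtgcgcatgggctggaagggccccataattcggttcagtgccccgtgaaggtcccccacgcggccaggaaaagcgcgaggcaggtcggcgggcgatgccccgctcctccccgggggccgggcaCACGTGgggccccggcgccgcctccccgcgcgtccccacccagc
Hilpda, chr6:29272376-29272625: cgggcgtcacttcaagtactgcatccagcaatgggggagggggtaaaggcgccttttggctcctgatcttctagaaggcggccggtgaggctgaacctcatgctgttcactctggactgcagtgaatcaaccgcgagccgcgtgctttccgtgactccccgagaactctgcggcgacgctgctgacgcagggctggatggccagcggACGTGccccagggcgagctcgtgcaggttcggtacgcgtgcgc

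The *Pnpla2* window held GC boxes starting 109 and 26 bases before the start, and the *Abhd5* window held a GC box 136 bases before it. In the *Mgll* window the palindrome CACGTG gave an ACGTG match on each strand, 44 and 43 bases before the start, and in the *Hilpda* window ACGTG lay 43 bases before it. Among the windows not shown, that of the other *Mgll* start held ACGTG 158 bases and a GC box 121 bases before it. At the upstream *Lipe* start, CACGTG gave an ACGTG match on each strand, 155 and 154 bases before it. GC boxes lay between 146 and 15 bases before that start, and the window at the main *Lipe* transcript held no match. GC boxes lay 18 bases before the *G0s2* start, 125 and 61 bases before the *Pnpla3* start and 38 bases before the downstream *Abhd6* start. A GC box also lay 154 bases before the other *Hilpda* start. GC boxes occur in 32.7% and ACGTG in 16.6% of the 32851 mouse windows of this length. The C/EBP motif (9.56% of all windows) and the PPAR-RXR repeat (0.0335%) had no match in the windows of the 8 members, which says only that these letters were not there. A match is a description of sequence and not a measured site.

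Genes that act beside the lipases were counted in lists chosen for function. Of 30 tested other hydrolases of neutral lipids and esters 5 fell and 0 rose (3 at an unadjusted p below 0.05 and 3 by DESeq2 were higher), with a median log2 fold change of -0.18. Among those that fell were *Lpl*, the extracellular lipase (-1.34, adjusted p 0.00988), and *Abhd3*, a phospholipase (-1.56, 0.00516). The others were *Pla2g16*, the adipocyte phospholipase (-0.87, 0.0185), *Ldah*, a droplet-associated hydrolase (-0.59, 0.0144), and *Pnpla5*, an ATGL relative. *Pnpla5* rested on few reads, with 46, 24 and 55 counts in Cebpa_fl/fl and 2, 2 and 1 in Cebpa_ASKO. *Nceh1*, a cholesteryl ester hydrolase gene, was at 8.75 ± 2.09 and 8.55 ± 0.404 CPM (SD, n = 3). *Lipa*, the lysosomal acid lipase gene, was at 79.3, 100.4 and 72.2 CPM in Cebpa_fl/fl and at 161, 160.4 and 114 CPM in Cebpa_ASKO, all higher, but did not pass the test (log2 fold change 0.79, adjusted p 0.0634).

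Of the 15 lipid droplet proteins that bind or shield the lipases 6 fell and 0 rose (5 at an unadjusted p below 0.05 and 4 by DESeq2 were higher), with a median of -0.05. *Plin1*, which holds CGI-58 on the droplet, was at 1152, 1166 and 1469 CPM in Cebpa_fl/fl and at 661, 599 and 479 CPM in Cebpa_ASKO (log2 fold change -1.12, SE 0.181, adjusted p 0.0187). *Cidec*, the droplet fusion factor, fell more (-2.49, adjusted p 0.00212), and *Bscl2* (-1.73), *Fabp5* (-2.36), *Plin4* (-1.24) and *Fitm2* (-0.72) also fell. *Fabp4*, a fatty acid carrier that binds hormone-sensitive lipase, was lower in all 3 libraries without passing (-0.86, adjusted p 0.107).

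In 7 of the 15 droplet genes every Cebpa_ASKO library lay below every Cebpa_fl/fl library, which held for 13.2% of all genes. In 5 every one lay above, which held for 12.9%, and none of these 5 passed the test. *Plin2*, the droplet coat gene of many cell types, was at 375, 277 and 358 CPM in Cebpa_fl/fl and at 795, 694 and 476 CPM in Cebpa_ASKO (log2 fold change 0.96, SE 0.221, adjusted p 0.0624). *Plin3* had a log2 fold change of 0.46 (adjusted p 0.0653), and *Fitm1*, at low levels of 0.401 to 3.93 CPM, of 1.65 (adjusted p 0.129). *Plin5*, which also binds CGI-58 and ATGL, was at 42.0, 9.05 and 22.4 CPM in Cebpa_fl/fl and at 83.0, 70.8 and 53.6 CPM in Cebpa_ASKO (log2 fold change 1.5, SE 0.505, adjusted p 0.165). *Cidea* was at 248, 33.8 and 119 CPM against 732, 524 and 343 CPM (2.00, SE 0.676, adjusted p 0.166). For *Plin5* and *Cidea* the Cebpa_fl/fl spread was wide.

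Among the 30 genes of hormone signalling to the lipases 9 fell and 1 rose (3 at an unadjusted p below 0.05 and 3 by DESeq2 were higher), with a median of -0.25. *Adrb3*, the adipocyte β-adrenergic receptor that triggers lipolysis, was at 275, 450 and 458 CPM in Cebpa_fl/fl and at 3.61, 2.88 and 4.69 CPM in Cebpa_ASKO (log2 fold change -6.72, SE 0.317, adjusted p 0.000317). The adenylate cyclase gene *Adcy5* (-2.03) and the protein kinase A subunit gene *Prkar2b* (-1.21) fell, and so did genes that oppose lipolysis: the inhibitory G protein gene *Gnai1* (-4.08), the insulin receptor gene *Insr* (-0.93) and *Pde3b*, which breaks down cyclic AMP (-1.24, adjusted p 0.00571). The antilipolytic receptor genes *Ptger3* (-2.58), *Hcar1* (-1.49) and *Hcar2* (-2.18) fell as well. *Akap1*, an anchor of protein kinase A, rose (0.64, adjusted p 0.0425), but its call was lost in all 6 fits that left out a library (adjusted p 0.0502 to 0.163).

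Of 11 transcription regulators of *Pnpla2* and *Lipe* 3 fell and 0 rose (0 at an unadjusted p below 0.05 and 0 by DESeq2 were higher): *Cebpa* (-3.55), the liver X receptor gene *Nr1h3* (-1.31) and *Pparg* (-0.78, adjusted p 0.0125), with a median of -0.13. Of 11 genes for the use of lipolysis products 5 fell and 0 rose (0 at an unadjusted p below 0.05 and 0 by DESeq2 were higher), with a median of -0.81: *Slc27a1* (-2.52), *Acsl1* (-1.58), *Pck1* (-1.72), *Dgat1* (-1.91) and *Dgat2* (-2.01). They handle the import and activation of fatty acids, the supply of glycerol phosphate and re-esterification, and *Aqp7*, a glycerol channel gene, was not among them (-0.28, adjusted p 0.374). Beside *Hilpda*, 3 of 14 hypoxia response genes fell and 0 rose (2 at an unadjusted p below 0.05 and 1 by DESeq2 were higher), with a median of 0.02: *Bnip3* (-1.81), *Egln3* (-1.26) and *Pfkfb3* (-1.84). *Vegfa* had a log2 fold change of -0.42 (adjusted p 0.362).

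**Figure D5:**
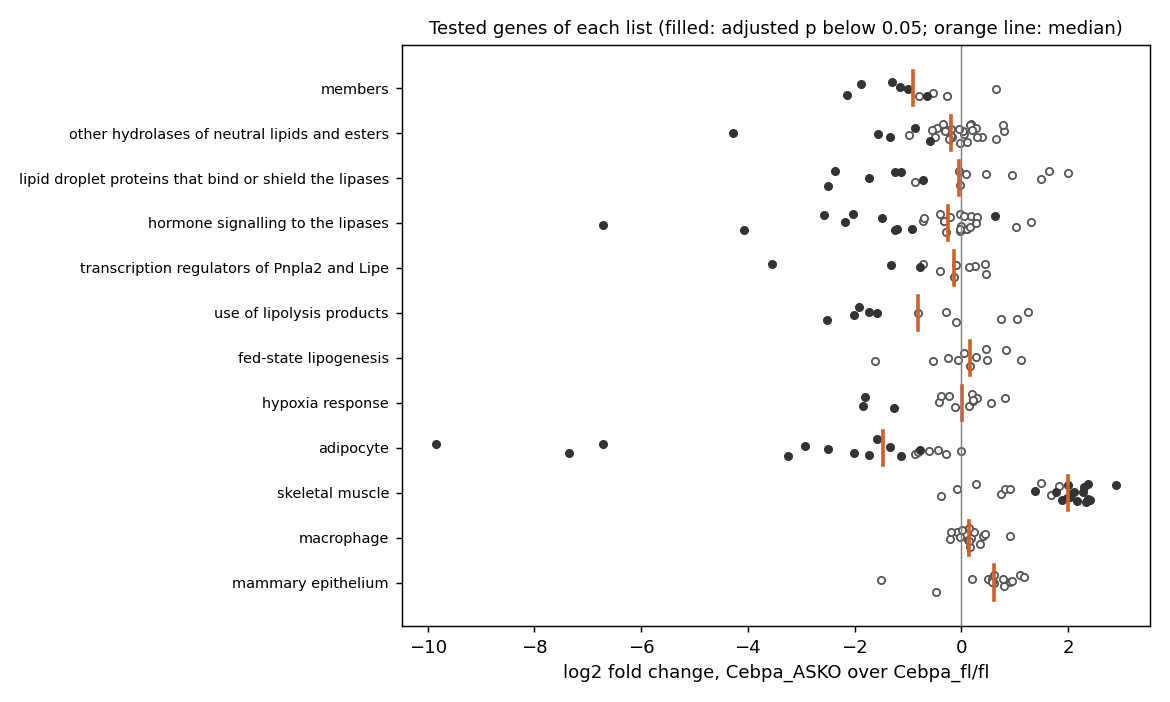
Log2 fold change of Cebpa_ASKO over Cebpa_fl/fl for every tested gene of the members, the functional lists and 4 marker lists, filled where the adjusted p was below 0.05, with an orange line at each median. The members' median lies at -0.89, that of hormone signalling at -0.25 and that of skeletal muscle at 2.00.

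Marker genes of the cells in the depot also moved. Of 18 adipocyte markers 12 fell and 0 rose (0 at an unadjusted p below 0.05 and 0 by DESeq2 were higher), *Adipoq* among them (-2.93), and their summed level was 38333 to 45172 CPM in Cebpa_fl/fl and 11058 to 13566 CPM in Cebpa_ASKO. Of 26 skeletal muscle markers 17 rose, with a sum of 873 to 1194 CPM in Cebpa_fl/fl and 2629 to 7388 CPM in Cebpa_ASKO. The 15 macrophage markers summed to 1395 to 3519.7 CPM against 2216 to 2975 CPM, and the 15 mammary epithelium markers to 927 to 2075 CPM against 2675 to 2738 CPM, with 0 called in either list by edgeR. At an unadjusted p below 0.05, 2 macrophage markers were higher, and 9 mammary markers were higher and 1 lower; DESeq2 called 0 and 5 higher. The 10 brown and beige markers, which include *Cidea*, summed to 172 to 1451 CPM against 862 to 1628 CPM, with 0 called by edgeR. At an unadjusted p below 0.05, 2 of them were higher and 1 lower, and DESeq2 called 1 lower and 0 higher. No marker was at 0 in all 6 libraries, and the adipocyte list shares genes such as *Lpl*, *Plin1*, *Cidec* and *Adrb3* with the lists above. The fit with the skeletal muscle covariate could not tell muscle from genotype. The part of the other markers in the members' values was not tested. In bulk tissue fewer cells of a type and less RNA per cell cannot be told apart.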

How the data were processed

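Bulk RNA-seq of iWAT from 3 Cebpa_fl/fl and 3 Cebpa_ASKO mice was analysed, grouped by the sample titles. The authors deposited estimated counts and TPM per transcript and TPM per gene symbol. The submitters' processing notes name kallisto 0.44.0, GRCm38.p6 and GRCh38.p12, and the transcript annotation release is not given in the sources used here. The labels say both depots of a mouse were extracted together, with poly-A selection and TruSeq libraries, and the paper's methods describe a weighed piece of tissue.

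Of 118489 transcripts 116816 (98.6%) matched GENCODE M21 (GRCm38). Estimated counts were summed per symbol (35999 symbols), rounded and fitted with edgeR 4.0.16 in R 4.3.3 (filterByExpr, TMM factors 0.956 to 1.06, glmQLFit and glmQLFTest), Cebpa_ASKO over Cebpa_fl/fl. The standard error is the log2 fold change divided by the root of F. The TPM summed per symbol lay within 1% of the deposited gene TPM for all 10 members, while *Ppp1ca*, *Pygm* and *Trem2* differed from it by a relative 0.5. Alternatives used DESeq2 1.42.0, DESeq2's size factors, total counts, other filters, a length offset, limma 3.58.1 on log2(TPM + 1) or log2(TPM + 0.1) with and without a filter of 1 TPM in 3 libraries, a replicate block, a muscle covariate and leaving out each library. Ratios and sums were tested by exact permutation over 20 arrangements. The fits were tested on simulated data. Libraries of a genotype differed by more than counting noise (chi-square over its degrees of freedom 27.6 to 239). Tables were handled with Python 3.11.15 and pandas 2.3.3.

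The members and the lists were chosen with earlier results of these data known. Named are the 10 members, *Cebpa*, *Adipoq*, the genes of each functional list that passed the test (at most the 6 with the smallest p per direction where a list is long) and the partners *Plin1*, *Plin5*, *Cidec*, *Cidea*, *Fabp4*, *Lpl*, *Adrb3*, *Pde3b*, *Ces1e*, *Ces1g*, *Nceh1*, *Fasn* and *Vegfa*; *Lep*, *Egr1*, *Lipa*, *Plin2*, *Plin3*, *Fitm1*, *Aqp7*, *Ptger3*, *Hcar1*, *Hcar2* and the transcripts were named after their values were seen.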

Additional observations from a re-analysis of the deposited data

How the results depend on the processing

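Over 18 alternatives per member, 180 values in all, 149 stayed on the same side of the threshold, 25 lost the call, 5 gained it and 1 changed sign, *G0s2* without Cebpa_ASKO 3 (0.16, against -0.60 without Cebpa_ASKO 2). *G0s2* per *Pnpla2* changed sign to -0.02 without Cebpa_ASKO 1 and -0.28 without Cebpa_ASKO 2 (0.96 without Cebpa_ASKO 3). *Abhd5* per *Pnpla2* changed from -0.46 to 0.02 with the main coding transcripts and -0.10 with all coding ones. The causes were not tested. Against 840 genes called (26.5% of them higher), DESeq2 called 1802 (37.0% higher) and limma 512 with a pseudocount of 0.1 and 349 without a filter; scaling by total counts moved the median log2 fold change of all genes to 0.07 (33.7% higher). Same-numbered libraries did not deviate together (correlations 0.0956, -0.00613 and -0.259), so the numbers give no pairing; the replicate block gave 370 calls, 3 members lower, hormone signalling 0 higher, droplet proteins 3 lower and other hydrolases 1 lower. With the muscle covariate, whose values did not overlap between the genotypes, every count was 0 (991 genes at an unadjusted p below 0.05). Unfiltered limma called 3 members, 4 hormone signalling genes, 0 hypoxia genes and 3 hydrolases lower, and both filtered limma fits called 3 hydrolases lower and 1 droplet protein higher, as did scaling by total counts for droplet proteins. DESeq2 called higher 3 hormone signalling, 4 droplet, 3 hydrolase and 1 hypoxia genes, and 1 fed-state gene lower. Leaving out a library gave 311 to 922 calls over all genes (10.6% to 30.9% higher), 311 of them without Cebpa_ASKO 1, 363 without Cebpa_ASKO 2, 502 and 508 without Cebpa_fl/fl 3 and 1; 3 to 6 members lower; hormone signalling 6 to 10 lower and 0 to 1 higher (*Akap1* in none of them); hypoxia 1 to 3 lower; droplet proteins 3 to 6 lower and 0 to 1 higher; hydrolases 1 to 5 lower and 0 to 1 higher; regulators 2 to 3 lower; products 4 to 5 lower and 0 to 1 higher; fed-state 0 to 1 either way; and the *Ces1* sum -1.21 to -0.99. Depth did not limit the members, which had at least 310.0 counts per library, but did limit *Pnpla5*, *Ces1e* and *Ces1g*.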
